A study of Mus musculus with 6 samples.

Results

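Chemokines are small secreted proteins that guide the movement of cells, and their receptors are G protein-coupled receptors on the cells that respond. The genes described here are 37 chemokine and chemokine receptor genes, chosen by symbol from the 54429 rows of the count tables of this study, and all 37 were found. They comprise 25 ligands and 12 receptors. They were grouped by role into lymphoid homing ligands, interferon-induced ligands, constitutive brain ligands, ligands that attract monocytes, neutrophils or T and dendritic cells, and the receptors of each.

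Prefrontal cortex of mice aged 6 to 8 weeks was profiled as bulk tissue by sequencing of total RNA after removal of ribosomal RNA. One group had received AAV9, an adeno-associated virus that carries genes into neurons, with a short hairpin RNA (shRNA) targeting the histone methyltransferase gene Kmt5b. Control cortex had received AAV9 with green fluorescent protein (GFP), and each group had 3 libraries. The labels name no control hairpin and no promoter for either virus, and virus-bearing cells were not separated from the rest of the tissue. The strain is C57BL6/J in the labels and a cross of C57BL/6 with C3H in the design text, for both groups. The design text counts fewer control mice than there are GFP libraries, and the extraction protocol speaks of duplicates, so p-values measure only the spread between these libraries, which may in part be technical.

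In the brain a few chemokines are made constantly by neurons, vessels and meninges. Cx3cl1 is displayed on neurons and read by microglia, and Cxcl12 holds and guides migrating cells. Most other chemokines are scarce in healthy cortex and are induced by interferons or by nuclear factor kappaB during inflammation, when they draw monocytes, T cells, B cells and neutrophils to the tissue. A separate set, including Cxcl13 and its receptor Cxcr5, organises lymphocytes in lymph nodes and spleen.

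Total counts were 48828638 to 57486203 in the Kmt5b shRNA libraries and 29490771 to 74723284 in the GFP libraries. Values are given as counts scaled to library size (CPM) by TMM, which corrects for library composition, and differences as log2 fold changes of Kmt5b shRNA over GFP with the standard error (SE). A gene passed when its edgeR quasi-likelihood p, adjusted by Benjamini-Hochberg over all 24419 genes tested, was under 0.05. Kmt5b itself had 68.5, 80.3 and 63.9 CPM in the Kmt5b shRNA libraries, against 86.5, 79.7 and 80.9 CPM in the GFP libraries. Its groups overlapped (log2 fold change -0.22 ± 0.10, edgeR adjusted p = 0.303), so every direction here is between libraries as labelled. With 3 libraries against 3, no two-sided exact permutation test can give a p below 0.1.

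Of the 37 genes, 33 had enough counts to be tested. In the libraries from Kmt5b shRNA cortex 4 of them passed as higher (Ccl2, Ccl4, Ccl12 and Cxcl10), where 2.77% of all genes tested passed as higher. As lower passed 5 (Cxcl13, Cxcl5, Cxcr5, Cxcr3 and Cxcr6), where 5.69% of all genes passed as lower. The 4 that rose were all ligands, 3 of them monocyte-attracting, while 3 of the 5 that fell were receptors of lymphocytes. In each of these 9 genes the 3 Kmt5b shRNA libraries lay on one side of all 3 GFP libraries. Across the tested members, 5 (15.2%) lay wholly above the GFP libraries and 9 (27.3%) wholly below, against 9.84% and 12.7% of all genes. The median log2 fold change was -0.23 over the members and -0.02 over all genes. The other 24 tested members had log2 fold changes from -1.87 to 1.17, and 7 of those had an unadjusted p under 0.05. With the 9 that passed, 6 of 33 members were higher and 10 lower at that unadjusted threshold, where 7.2% of all genes were higher and 10.2% lower. DESeq2 called 2.77% of the 30697 genes to which it gave an adjusted p higher and 5.32% lower, and its counts of members are given by group. Without GFP library 3, 1 member passed as higher and 2 as lower. The number higher was also 1 without Kmt5b shRNA library 3, and 2 without GFP library 2 or Kmt5b shRNA library 1. These counts stand without those of all genes in the same fits, so no change particular to the members can be read from them. In bulk tissue fewer cells of a type and less RNA per cell cannot be told apart.

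Many mouse genes have near-copies in the genome to which reads can be assigned by mistake, and the test was therefore repeated on the 12199 tested protein-coding genes that shared no sequence with another gene. There 0 of 32 members passed as higher, where 0.648% of genes passed, and 2 of 32 passed as lower, Cxcl13 and Cxcl5, where 0.287% passed. At an unadjusted p under 0.05, 6 of 32 members were higher and 10 lower in that fit, where 7.96% of its genes were higher and 6.94% lower. DESeq2 on the same genes called 4 members higher and 6 lower, the 6 including Ccr6, which edgeR did not test. It called 2.4% of genes higher and 1.57% lower. Thus 7 of the 9 members lost their edgeR call there, at log2 fold changes close to those of the first fit, and adjusted p-values of both fits are given for these members.

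**Figure D1:**
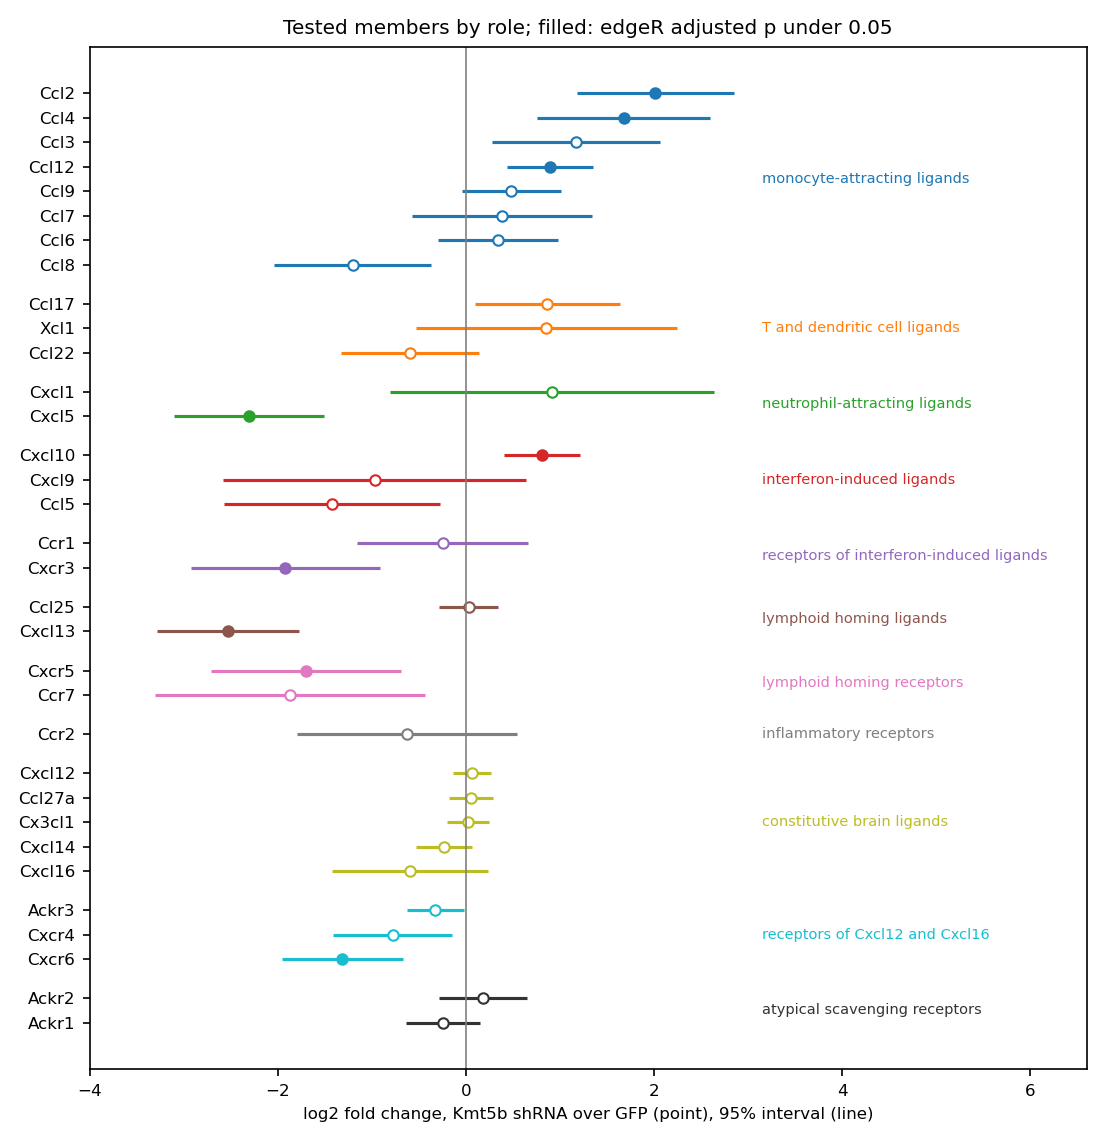
Log2 fold change of Kmt5b shRNA over GFP (horizontal axis) for the 33 tested genes, grouped by role, with the 95% interval as a line and filled points for genes with an edgeR adjusted p under 0.05. Cx3cl1, Cxcl12 and Ccl27a sit near 0 with short intervals, 7 of 8 monocyte-attracting ligands lie above 0, and 9 of 10 tested receptors lie below 0.

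To show the regulatory sequence beside the values, the RefSeq promoter window is printed for 4 members, each running from 250 bases before to 50 after the transcript start (RefSeq, build GRCm38.p6, 5′ to 3′ on the gene's strand). These are Cxcl10 (chr5:92348840-92349139, minus strand), its neighbour Cxcl9 (chr5:92328030-92328329, minus strand), Cxcl13 (chr5:95956689-95956988, plus strand) and Ccl12 (chr11:82101595-82101894, plus strand). Capitals mark matches to an interferon response element core (GAAANNGAAA) or a kappaB pair (GGGANNTTCC), each searched on both strands; the 2 motifs do not overlap in the printed windows.
Cxcl10: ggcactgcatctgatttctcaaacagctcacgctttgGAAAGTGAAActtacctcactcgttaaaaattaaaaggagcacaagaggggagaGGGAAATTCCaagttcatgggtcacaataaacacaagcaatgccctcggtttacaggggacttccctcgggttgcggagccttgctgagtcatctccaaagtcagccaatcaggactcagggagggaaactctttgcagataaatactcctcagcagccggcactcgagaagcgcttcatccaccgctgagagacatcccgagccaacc
Cxcl9: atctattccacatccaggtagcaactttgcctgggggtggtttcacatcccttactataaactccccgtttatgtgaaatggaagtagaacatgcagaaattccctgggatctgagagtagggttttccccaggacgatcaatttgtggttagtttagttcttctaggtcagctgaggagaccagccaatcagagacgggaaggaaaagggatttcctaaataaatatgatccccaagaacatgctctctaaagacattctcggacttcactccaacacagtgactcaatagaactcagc
Cxcl13: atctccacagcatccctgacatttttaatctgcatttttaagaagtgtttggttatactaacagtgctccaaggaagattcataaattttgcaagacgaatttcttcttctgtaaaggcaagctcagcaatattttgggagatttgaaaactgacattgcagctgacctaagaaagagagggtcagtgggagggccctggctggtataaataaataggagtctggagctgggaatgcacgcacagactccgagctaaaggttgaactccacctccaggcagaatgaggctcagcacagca
Ccl12: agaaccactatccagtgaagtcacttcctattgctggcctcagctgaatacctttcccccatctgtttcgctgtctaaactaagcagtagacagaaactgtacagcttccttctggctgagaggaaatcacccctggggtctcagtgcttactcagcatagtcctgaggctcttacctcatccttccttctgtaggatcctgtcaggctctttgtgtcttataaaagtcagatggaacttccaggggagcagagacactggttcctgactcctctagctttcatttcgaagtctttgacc

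The Cxcl10 window held the interferon core at position -213 and the kappaB pair at position -159 from the start. The Cxcl9, Cxcl13 and Ccl12 windows held neither of these letter strings, from which nothing follows about the factors. Windows were found for 28 members, 32 windows in all. The interferon core stood in those of 3 of the 28 members (Cxcl10, Cxcl14 and Ccl19), beside 3.99% of all 27025 genes with a window. The kappaB pair stood in those of 2 members (Cxcl10 and Cxcl1), beside 1.63% of those genes. Of these members Cxcl10 passed the test as higher, while Cxcl14 and Cxcl1 did not pass and Ccl19 was too low to be tested.

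Among ligands that attract monocytes, Ccl2, Ccl12 and Ccl4 rose in Kmt5b shRNA cortex. Of 8 tested, 3 passed as higher and 0 as lower by edgeR, and 7 had a log2 fold change above 0, with a median of 0.69. At an unadjusted p under 0.05, 4 were higher and 1 lower, and DESeq2 called 3 higher and 1 lower. Of all genes 2.77% passed as higher and 5.69% as lower in edgeR, with a median log2 fold change of -0.02. At the unadjusted threshold 7.2% of all genes were higher and 10.2% lower, and DESeq2 called 2.77% higher and 5.32% lower. The edgeR count was 1 without GFP library 3, Kmt5b shRNA library 1 or Kmt5b shRNA library 3. Their summed level was 16.1, 13.4 and 25.0 CPM in the Kmt5b shRNA libraries, against 12.5, 10.2 and 12.6 CPM in the GFP libraries. All 3 Kmt5b shRNA libraries lay above all 3 GFP libraries, with Kmt5b shRNA library 3 highest.

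Ccl2, the main ligand of Ccr2 and a recruiter of blood monocytes, lies on chromosome 11 from 82035571 to 82037453 (mm10). It had 3.32, 1.83 and 4.76 CPM in the Kmt5b shRNA libraries, against 0.733, 0.455 and 1.18 CPM in the GFP libraries. The lowest Kmt5b shRNA library was thus above the highest GFP library. It had a log2 fold change of 2.01 ± 0.38 (edgeR adjusted p = 0.00313), and Ccl2 passed with any 1 of the 6 libraries left out. Among genes sharing no sequence its adjusted p was 0.0520.

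Ccl12, a mouse ligand of Ccr2, had 4.94, 3.92 and 5.94 CPM in the Kmt5b shRNA libraries, against 2.84, 2.73 and 2.42 CPM in the GFP libraries. The GFP libraries lay close together and below every Kmt5b shRNA library. This gave a log2 fold change of 0.89 ± 0.21 (edgeR adjusted p = 0.0128; 0.0735 among genes sharing no sequence). Its adjusted p was 0.0578 without GFP library 3, 0.0555 without Kmt5b shRNA library 1 and 0.0786 without Kmt5b shRNA library 3.

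Ccl4, a ligand made by activated macrophages, microglia and T cells, had 1.11, 0.581 and 1.80 CPM in the Kmt5b shRNA libraries, against 0.419, 0.260 and 0.383 CPM in the GFP libraries. Groups did not overlap, and Kmt5b shRNA library 2 was nearest to the GFP libraries. In edgeR the log2 fold change came to 1.68 ± 0.43 (adjusted p = 0.0207; 0.114 among genes sharing no sequence). It lost the call without GFP library 2 (adjusted p = 0.0852), GFP library 3 (0.0593), Kmt5b shRNA library 1 (0.0561) or Kmt5b shRNA library 3 (0.154). Ccl3, its neighbour on the chromosome and a ligand of Ccr1, ranged from 0.808 to 2.08 CPM in the Kmt5b shRNA libraries and from 0.374 to 0.716 CPM in the GFP libraries. Its log2 fold change of 1.17 ± 0.42 did not pass, with an edgeR adjusted p of 0.122.

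Ccl8, whose human counterpart attracts monocytes, had the opposite sign. It had 0.545, 1.03 and 1.90 CPM in the Kmt5b shRNA libraries, against 3.53, 2.34 and 2.12 CPM in the GFP libraries. Groups did not overlap, but Kmt5b shRNA library 3 came close to GFP library 3. The log2 fold change of -1.20 ± 0.39 did not pass in edgeR (adjusted p = 0.0851), while DESeq2 gave an adjusted p of 0.0223. Without Kmt5b shRNA library 3 the edgeR adjusted p was 0.00422, and the log2 fold change -1.76.

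The remaining ligands of this group did not pass. Ccl6 had 2.20, 2.11 and 4.16 CPM in the Kmt5b shRNA libraries, against 2.09, 1.69 and 2.82 CPM in the GFP libraries, and a log2 fold change of 0.34 ± 0.30. Ccl9, like Ccl6 a mouse ligand of Ccr1, had 2.86, 2.35 and 3.35 CPM in the Kmt5b shRNA libraries, against 1.87, 1.69 and 2.52 CPM in the GFP libraries, and a log2 fold change of 0.48 ± 0.25. In both genes the groups overlapped, and edgeR adjusted p-values were 0.658 for Ccl6 and 0.350 for Ccl9. Ccl7, a ligand of Ccr2, ranged from 0.334 to 0.893 CPM in the Kmt5b shRNA libraries and from 0.260 to 0.598 CPM in the GFP libraries. Ccl11, the eosinophil attractant eotaxin, was near zero, at 0.109 CPM or less in every library, and was not tested.

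**Figure D2:**
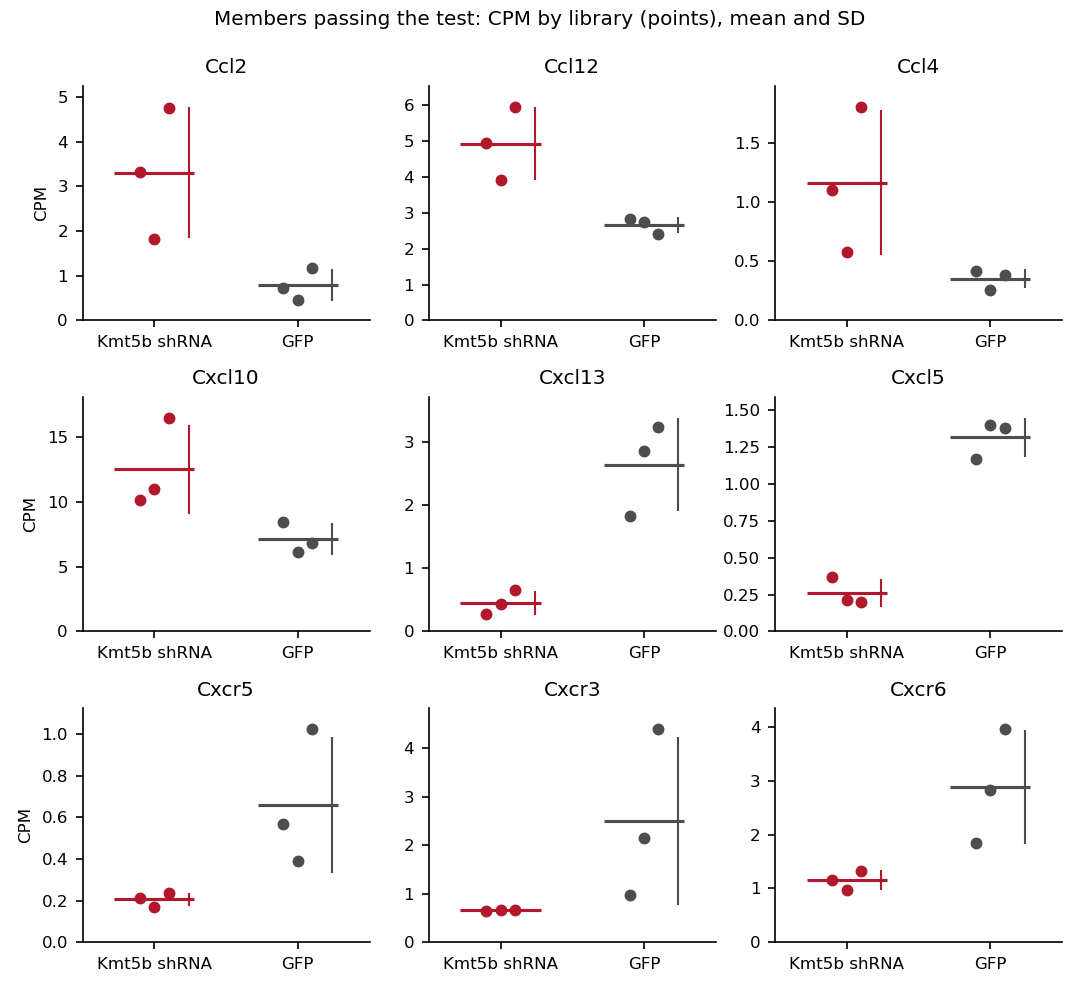
CPM in each library (points; the line is the mean, the bar the SD, n = 3) for the 9 genes with an edgeR adjusted p under 0.05, Kmt5b shRNA on the left and GFP on the right of each panel. Ccl2, Ccl12, Ccl4 and Cxcl10 are higher in all 3 Kmt5b shRNA libraries, and in Cxcr3, Cxcr5 and Cxcr6 the highest point is GFP library 3.

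The interferon-induced ligands Cxcl9, Cxcl10 and Ccl5 did not move as 1 block. Cxcl10, which is induced by type I interferon and by interferon gamma and attracts cells through Cxcr3, passed as higher. Cxcl9, which interferon gamma induces, and Ccl5, which activated T cells also make, had log2 fold changes below 0 and did not pass. Summed, the 3 had 14.1, 19.3 and 29.7 CPM in the Kmt5b shRNA libraries, against 27.3, 17.3 and 31.9 CPM in the GFP libraries, and the groups overlapped in part.

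Cxcl10, on chromosome 5 from 92346638 to 92348889 (mm10), had 10.12, 10.95 and 16.42 CPM in the Kmt5b shRNA libraries, against 8.45, 6.08 and 6.79 CPM in the GFP libraries. All 3 Kmt5b shRNA libraries were higher, library 3 by the most. It had a log2 fold change of 0.81 ± 0.19 (edgeR adjusted p = 0.0123; 0.0841 among genes sharing no sequence). The adjusted p was 0.0622 without GFP library 2, 0.0560 without GFP library 3 and 0.0737 without Kmt5b shRNA library 3. Exons of Art3 on the opposite strand cover 5.91% of its exons, and the strand setting of the counting is not given in the sources used here.

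Cxcl9, the next gene along the chromosome, had 2.41, 6.11 and 9.08 CPM in the Kmt5b shRNA libraries, against 14.1, 6.05 and 13.9 CPM in the GFP libraries. GFP library 2 lay within the Kmt5b shRNA range. The log2 fold change was -0.97 ± 0.61 (95% interval -2.58 to 0.64; edgeR adjusted p = 0.557). Ccl5 had 1.55, 2.19 and 4.16 CPM in the Kmt5b shRNA libraries, against 4.69, 5.14 and 11.2 CPM in the GFP libraries. Its groups did not overlap, and its log2 fold change of -1.42 ± 0.48 had an edgeR adjusted p of 0.169, or 0.0263 without Kmt5b shRNA library 3.

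Other interferon-stimulated genes, a list of 22, were measured beside these ligands. Of the 22, 2 passed as higher and 0 as lower in edgeR, 21 had a log2 fold change above 0, and the median was 0.54, against -0.02 over all genes. DESeq2 called 8 higher and 0 lower, and at an unadjusted p under 0.05 there were 11 higher and 0 lower. Of all genes 2.77% passed as higher in edgeR and 2.77% in DESeq2, and 7.2% were higher at that unadjusted threshold. The antiviral gene Rsad2 (log2 fold change 2.04 ± 0.37, edgeR adjusted p = 0.0285) and the oligoadenylate synthetase-like gene Oasl2 (0.98 ± 0.21, adjusted p = 0.0218) rose. Rsad2 had an adjusted p of 0.121 without GFP library 1, 0.0993 without GFP library 2, 0.124 without GFP library 3 and 0.0924 without Kmt5b shRNA library 1. For Oasl2 it was 0.0937 without GFP library 2 and 0.110 without GFP library 3. Among genes sharing no sequence 0 of 17 passed in edgeR, with 9 higher at an unadjusted p under 0.05. The summed level of the list was 462, 442 and 716 CPM in the Kmt5b shRNA libraries, against 411, 366 and 413 CPM in the GFP libraries, and Kmt5b shRNA library 3 was again highest. The number passing was 0 without GFP library 2 or without GFP library 3, and reached 8 with another library left out. Of 13 tested genes for interferon gamma, its receptors and innate inducers, 0 passed in edgeR or in DESeq2, and 1 was lower at an unadjusted p under 0.05. Ifnb1, the interferon beta gene, was at 0 in every library, and the part of the interferon-stimulated genes in the Cxcl10 result was not tested.

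Cxcl13 showed the largest log2 fold change of the 33 tested members. It is the B cell attractant of lymphoid follicles and the ligand of Cxcr5, and lies on chromosome 5 from 95956951 to 95961068 (mm10). It had 0.281, 0.430 and 0.656 CPM in the Kmt5b shRNA libraries, against 1.82, 2.86 and 3.25 CPM in the GFP libraries. The lowest GFP library was above the highest Kmt5b shRNA library. This gave a log2 fold change of -2.53 ± 0.35 (95% interval -3.29 to -1.77; edgeR adjusted p = 0.000114), and Cxcl13 passed with any 1 library left out. Among genes sharing no sequence the adjusted p was 0.0110, or 0.0521 without GFP library 3 and 0.0678 without Kmt5b shRNA library 1.

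Ccl25, which draws T cells to thymus and gut, did not share this difference. It had 10.6, 9.60 and 12.2 CPM in the Kmt5b shRNA libraries, against 9.07, 10.61 and 11.99 CPM in the GFP libraries. The groups overlapped throughout, with a log2 fold change of 0.03 ± 0.15 and a 95% interval of -0.28 to 0.35. Ccl19, a ligand of Ccr7, was near zero, with 4, 0 and 10 counts in the Kmt5b shRNA libraries, against 2, 0 and 0 counts in the GFP libraries. It was not tested, and 88.9% of its transcript aligned to that of the near-copy Gm2564.

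Cxcr5, the Cxcl13 receptor of B cells and follicular helper T cells, was low in both groups. It had 0.211, 0.172 and 0.237 CPM in the Kmt5b shRNA libraries, against 0.568, 0.390 and 1.02 CPM in the GFP libraries. The groups did not overlap, and GFP library 3 was highest. At 12, 8 and 13 counts in the Kmt5b shRNA libraries, Cxcr5 had enough counts to be tested only with the help of the GFP libraries. Its call is thus not independent of the low-count filter. In edgeR the log2 fold change came to -1.70 ± 0.47 (adjusted p = 0.0347; 0.128 among genes sharing no sequence). Without GFP library 3 the log2 fold change was -1.22 and the adjusted p 0.294, and the call was also lost without Kmt5b shRNA library 1 (0.112), library 2 (0.0996) or library 3 (0.0674). DESeq2 gave an adjusted p of 0.0527.

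Ccr7, the receptor that brings naive T cells and dendritic cells into lymph nodes, had 0.492, 1.08 and 0.383 CPM in the Kmt5b shRNA libraries, against 2.83, 0.618 and 3.45 CPM in the GFP libraries. GFP library 2 lay within the Kmt5b shRNA range, and the other 2 GFP libraries lay well above it. The log2 fold change of -1.87 ± 0.62 did not pass in edgeR (adjusted p = 0.140), while DESeq2 gave an adjusted p of 0.00395. Without GFP library 2 the edgeR adjusted p was 0.00183.

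Receptors lay mostly on the lower side, and Cxcr3, Cxcr5 and Cxcr6 fell. Of 10 tested, 3 passed as lower and 0 as higher in edgeR, 9 had a log2 fold change below 0, and the median was -0.70. At an unadjusted p under 0.05, 6 were lower and 0 higher. Over all 12 receptors DESeq2 called 4 lower and 0 higher, and the 4 include Ccr6, which edgeR did not test. Of all genes 5.69% passed as lower in edgeR, 10.2% were lower at the unadjusted threshold, and DESeq2 called 5.32% lower. The median over all genes was -0.02. Among genes sharing no sequence 0 of 10 passed in edgeR, with 6 lower at an unadjusted p under 0.05, where 6.94% of those genes were lower. Their summed level was 31.0, 31.0 and 33.0 CPM in the Kmt5b shRNA libraries, against 39.4, 42.3 and 53.4 CPM in the GFP libraries. The Kmt5b shRNA libraries lay close together and below every GFP library. The number passing as lower in edgeR was 0 without GFP library 3.

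Cxcr3, the receptor of Cxcl9 and Cxcl10 on activated T cells, had 0.650, 0.667 and 0.674 CPM in the Kmt5b shRNA libraries, against 0.972, 2.15 and 4.38 CPM in the GFP libraries. The Kmt5b shRNA libraries were nearly equal, while the GFP libraries spread widely above them. It had a log2 fold change of -1.92 ± 0.46 (edgeR adjusted p = 0.0197; 0.0967 among genes sharing no sequence). Without GFP library 3 the log2 fold change was -1.20 and the adjusted p 0.0998. The call was also lost without Kmt5b shRNA library 1 (0.0921), library 2 (0.140) or library 3 (0.130). Cxcr3 thus stood on the opposite side of 0 from its ligand Cxcl10, and on the same side as its ligand Cxcl9, which did not pass. Ccr1, a receptor of Ccl3 and Ccl5, ranged from 0.857 to 0.949 CPM in the Kmt5b shRNA libraries and from 0.419 to 1.74 CPM in the GFP libraries, with a log2 fold change of -0.25 ± 0.42.

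Cxcr6, the Cxcl16 receptor of tissue-resident T cells, had 1.16, 0.968 and 1.33 CPM in the Kmt5b shRNA libraries, against 1.84, 2.83 and 3.95 CPM in the GFP libraries. The groups did not overlap. This gave a log2 fold change of -1.32 ± 0.30 (edgeR adjusted p = 0.00925; 0.0804 among genes sharing no sequence). Without GFP library 3 the adjusted p was 0.0800. Ccr2, the monocyte receptor of Ccl2 and Ccl12, did not pass in either direction. It had 2.39, 3.87 and 5.74 CPM in the Kmt5b shRNA libraries, against 3.05, 5.76 and 9.65 CPM in the GFP libraries. The groups overlapped, and the log2 fold change was -0.63 ± 0.49 (95% interval -1.80 to 0.55; edgeR adjusted p = 0.636).

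Several markers of lymphocytes fell in the same libraries as these receptors. Of 9 T cell markers tested, 5 passed as lower and 0 as higher in edgeR, all 9 had a log2 fold change below 0, and none was at 0 in every library. At an unadjusted p under 0.05, 8 were lower and 0 higher, and DESeq2 called 6 lower and 0 higher. Of all genes 5.69% passed as lower in edgeR, 10.2% were lower at that unadjusted threshold, and DESeq2 called 5.32% lower. Their summed level was 5.94, 6.35 and 9.95 CPM in the Kmt5b shRNA libraries, against 14.3, 14.7 and 28.2 CPM in the GFP libraries. Cd4, the helper T cell co-receptor (log2 fold change -1.65 ± 0.24, edgeR adjusted p = 0.000188), and Cd3g, a chain of the T cell receptor complex (-1.79 ± 0.37, adjusted p = 0.00401), fell. With 1 library left out the number passing as lower ranged from 2 to 6, and it was 2 without GFP library 3 or without Kmt5b shRNA library 1. Among genes sharing no sequence 1 of 8 T cell markers passed in edgeR, Cd4 (adjusted p = 0.0110), and Cd3g had an adjusted p of 0.0578, with 6 lower at an unadjusted p under 0.05. Of 8 B and plasma cell markers, 3 passed as lower and 0 as higher in edgeR, and all 8 had a log2 fold change below 0. All 8 were lower at an unadjusted p under 0.05, and DESeq2 called 7 lower and 0 higher. Together they summed to 54.0, 40.8 and 48.5 CPM in the Kmt5b shRNA libraries, against 301, 1060 and 1142 CPM in the GFP libraries, most of it from the immunoglobulin genes Ighm and Igkc. No marker was at 0 in every library, while Ms4a1 was at 0 in Kmt5b shRNA library 2. The B cell genes Cd79a (log2 fold change -2.72 ± 0.58, adjusted p = 0.00795) and Ms4a1 (-3.62 ± 0.73, adjusted p = 0.00835) were lower. In the Kmt5b shRNA libraries Cd79a had 12, 4 and 16 counts and Ms4a1 8, 0 and 10 counts. Both had enough counts to be tested only through the GFP libraries, where they were higher, so their calls are not independent of the low-count filter. The number passing ranged from 1 to 6 with 1 library left out, and was 1 without Kmt5b shRNA library 1, where Ms4a1 had an adjusted p of 0.0647. For B and plasma cells 0 of 4 markers passed among genes sharing no sequence, where Ms4a1 had an adjusted p of 0.0565, and all 4 were lower at an unadjusted p under 0.05. Cd79a was not among those genes. The part of these markers in the results of Cxcr3, Cxcr5, Cxcr6, Ccr6, Ccr7, Ccl5 and Cxcl13 was not tested.

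Markers of microglia and of macrophages at the brain's borders were compared for the myeloid ligands. Beside the counts below, 2.77% of all genes passed as higher and 5.69% as lower in edgeR. At an unadjusted p under 0.05, 7.2% of all genes were higher and 10.2% lower, and DESeq2 called 2.77% higher and 5.32% lower. Of 9 microglial markers 0 passed in edgeR or DESeq2, and 0 had an unadjusted p under 0.05. Their summed level was 474, 463 and 576 CPM in the Kmt5b shRNA libraries, against 438, 544 and 552 CPM in the GFP libraries, with overlap. Of 6 border macrophage markers 0 passed in edgeR, with 1 higher and 1 lower at an unadjusted p under 0.05, and DESeq2 called 1 higher. The higher one was Cd163, with 4.27, 3.25 and 3.39 CPM in the Kmt5b shRNA libraries, against 2.11, 1.95 and 2.70 CPM in the GFP libraries. Its log2 fold change was 0.68 ± 0.23 (edgeR adjusted p = 0.0917). The lower one was Ms4a7 (-1.01 ± 0.40, edgeR adjusted p = 0.182). Border macrophage markers summed to 22.6, 17.1 and 18.1 CPM in the Kmt5b shRNA libraries, against 17.3, 18.8 and 20.3 CPM in the GFP libraries. Of 6 monocyte and dendritic cell markers 1 passed as lower, the dendritic cell growth factor receptor Flt3 (log2 fold change -0.86 ± 0.17, edgeR adjusted p = 0.00324). At an unadjusted p under 0.05, 2 were lower and 0 higher, and DESeq2 called 2 lower and 0 higher. Ly6c2 had 1.23, 1.61 and 3.01 CPM in the Kmt5b shRNA libraries, against 3.12, 9.27 and 18.2 CPM in the GFP libraries (-2.39 ± 0.80, edgeR adjusted p = 0.232). Of the 6 markers 3 had a log2 fold change above 0 and 3 below. Together these summed to 13.4, 16.2 and 26.9 CPM in the Kmt5b shRNA libraries, against 18.4, 27.8 and 48.2 CPM in the GFP libraries. In none of these 3 lists did a marker pass as higher in edgeR, and the part of these cells in the results of Ccl2, Ccl4 and Ccl12 was not tested. In the astrocyte list 2 of 6 genes passed as lower. Among genes sharing no sequence it was 1 of 5, where 0.287% of all genes in that fit passed as lower. In the NK cell, endothelial, mural, meningeal fibroblast, choroid plexus, oligodendrocyte, neuron and cortical neuron lists 0 passed in edgeR. Of those lists, the cortical neuron one had 4 genes higher at an unadjusted p under 0.05, and the meningeal fibroblast, choroid plexus and oligodendrocyte lists 1 gene lower each, which DESeq2 also called.

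**Figure D3:**
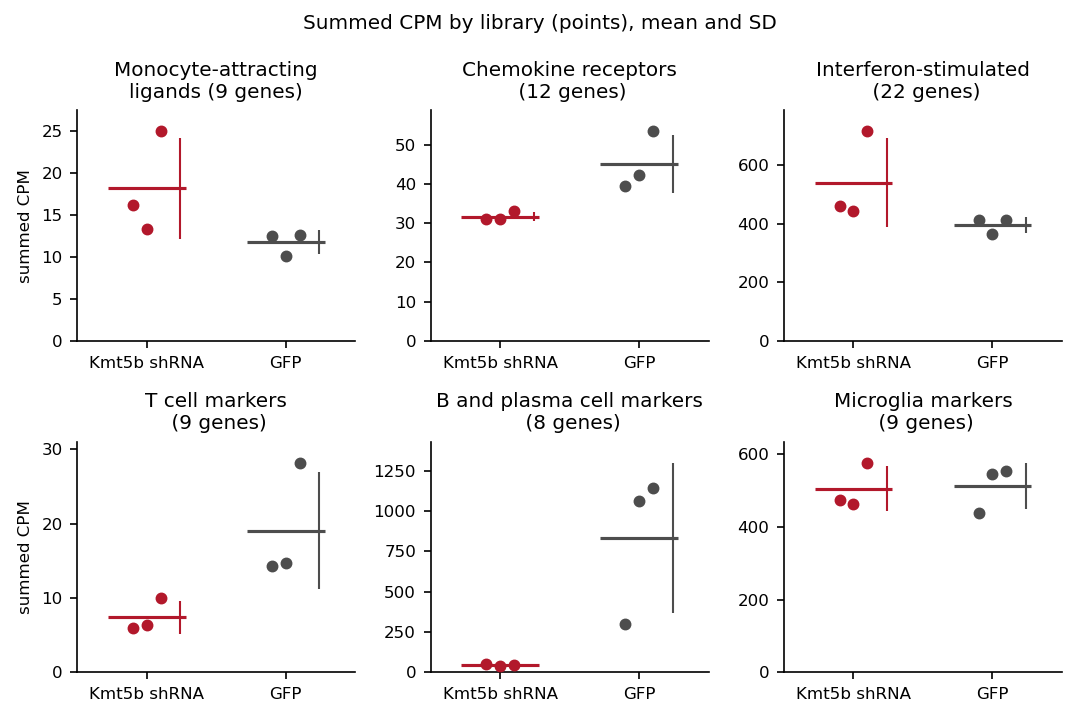
Summed CPM by library (points; the line is the mean, the bar the SD, n = 3), Kmt5b shRNA left and GFP right, for the monocyte-attracting ligands, the chemokine receptors, interferon-stimulated genes and markers of T cells, B and plasma cells and microglia. Receptors, T cell markers and B cell markers are lower in all 3 Kmt5b shRNA libraries, the ligands and interferon-stimulated genes are higher there, and microglial markers overlap.

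Neutrophil attractants were scarce. Cxcl5, a ligand of Cxcr2, lies on chromosome 5 from 90759360 to 90761624 (mm10) and had 0.369, 0.215 and 0.201 CPM in the Kmt5b shRNA libraries, against 1.17, 1.40 and 1.38 CPM in the GFP libraries. These values rest on 21, 10 and 11 counts in the Kmt5b shRNA libraries. The groups were far apart and each was narrow. In edgeR the log2 fold change came to -2.31 ± 0.37 (95% interval -3.10 to -1.51; adjusted p = 0.000463), and Cxcl5 passed with any 1 library left out. Among genes sharing no sequence the adjusted p was 0.0189. That value was 0.0594 without GFP library 2, 0.0726 without GFP library 3, 0.0527 without Kmt5b shRNA library 2 and 0.0611 without Kmt5b shRNA library 3. Cxcl1, the other Cxcr2 ligand here, ranged from 0.172 to 0.351 CPM in the Kmt5b shRNA libraries and from 0 to 0.359 CPM in the GFP libraries, and did not pass. Their receptor Cxcr2 was near zero in both groups, at 0.109 CPM or less. Of the neutrophil markers Ly6g was at 0 in every library, and of 3 tested 0 passed in edgeR or DESeq2, with 0 at an unadjusted p under 0.05. The summed level of these markers was 0.492, 0.495 and 0.911 CPM in the Kmt5b shRNA libraries, against 0.957, 1.37 and 0.933 CPM in the GFP libraries. Their part in the Cxcl5 result was not tested.

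Ligands of T and dendritic cells did not pass in either direction, in edgeR or in DESeq2, and 1 of 3 was higher at an unadjusted p under 0.05. That was Ccl17, a Ccr4 ligand, which ranged from 0.689 to 1.51 CPM in the Kmt5b shRNA libraries and from 0.538 to 0.754 CPM in the GFP libraries (log2 fold change 0.86 ± 0.36, edgeR adjusted p = 0.208). Ccl22, the other Ccr4 ligand, ranged from 0.492 to 0.930 CPM in the Kmt5b shRNA libraries and from 0.846 to 1.35 CPM in the GFP libraries, with a log2 fold change of -0.60 ± 0.34. Xcl1, made by NK cells and CD8+ T cells, was near zero, at 0.105 to 0.328 CPM in the Kmt5b shRNA libraries and 0.0651 to 0.194 CPM in the GFP libraries. The noncoding gene Gm20743 on the opposite strand overlaps 18.7% of its exons.

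The constitutive brain ligands did not differ detectably, and Cx3cl1 was the member with the highest CPM in every library. Of 5 ligands tested 0 passed in edgeR or DESeq2, and 0 had an unadjusted p under 0.05. Cx3cl1 had 693, 625 and 609 CPM in the Kmt5b shRNA libraries, against 694, 620 and 584 CPM in the GFP libraries. The ranges almost coincided, and the log2 fold change was 0.02 ± 0.11, with a 95% interval of -0.20 to 0.25. Cx3cl1 alone made up 70.6% to 74.3% of the members' summed CPM in the Kmt5b shRNA libraries and 68.0% to 72.5% in the GFP libraries. Its receptor on microglia, Cx3cr1, had 78.9, 78.1 and 94.1 CPM in the Kmt5b shRNA libraries, against 72.9, 88.9 and 83.4 CPM in the GFP libraries, with a log2 fold change of 0.04 ± 0.11.

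Cxcl12, the ligand of Cxcr4 and Ackr3, had 54.1, 52.8 and 50.1 CPM in the Kmt5b shRNA libraries, against 51.7, 51.6 and 47.1 CPM in the GFP libraries. Its log2 fold change was 0.06 ± 0.09, with a 95% interval of -0.14 to 0.26. Cxcl14, which cortical interneurons express, had 42.2, 37.7 and 30.7 CPM in the Kmt5b shRNA libraries, against 42.2, 51.4 and 36.9 CPM in the GFP libraries. The groups overlapped in both genes, and for Cxcl14 the log2 fold change was -0.23 ± 0.14, with a 95% interval of -0.53 to 0.06. Ccl27a had 64.9, 67.7 and 62.2 CPM in the Kmt5b shRNA libraries, against 70.6, 53.7 and 63.1 CPM in the GFP libraries, and a log2 fold change of 0.05 ± 0.11. Its values are uncertain, since 59.1% of its transcript aligned to that of Gm20878.

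Cxcl16, a membrane-bound ligand of Cxcr6, had 3.71, 3.44 and 6.67 CPM in the Kmt5b shRNA libraries, against 4.81, 5.27 and 10.6 CPM in the GFP libraries. Library 3 was the highest in each group, the groups overlapped, and the log2 fold change was -0.59 ± 0.36 (edgeR adjusted p = 0.499). Exons of Zmynd15 on the opposite strand cover 18.3% of its exons.

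The receptors of Cxcl12 did not pass. Cxcr4, which leukocytes and migrating interneurons carry, had 1.32, 1.98 and 2.52 CPM in the Kmt5b shRNA libraries, against 2.56, 2.73 and 4.63 CPM in the GFP libraries. Ackr3, an atypical receptor that removes Cxcl12, had 10.3, 11.5 and 10.6 CPM in the Kmt5b shRNA libraries, against 16.1, 12.6 and 11.7 CPM in the GFP libraries. In both genes the Kmt5b shRNA libraries lay below all GFP libraries, by a small gap. The log2 fold changes were -0.78 ± 0.30 for Cxcr4 (edgeR adjusted p = 0.151) and -0.32 ± 0.14 for Ackr3 (adjusted p = 0.233).

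The atypical scavenging receptors bind chemokines without signalling through G proteins. Ackr1, found on venules and erythroid cells, had 9.95, 6.13 and 7.46 CPM in the Kmt5b shRNA libraries, against 8.42, 10.997 and 8.54 CPM in the GFP libraries. Ackr2, which clears inflammatory CC chemokines, had 3.46, 3.77 and 3.12 CPM in the Kmt5b shRNA libraries, against 2.53, 2.86 and 3.68 CPM in the GFP libraries. The groups overlapped in both, with log2 fold changes of -0.24 ± 0.18 for Ackr1 and 0.18 ± 0.22 for Ackr2. Cadm3 shares 25.7% of the exons of Ackr1 on the same strand, so reads there cannot be assigned with certainty.

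Ccr6, the Ccl20 receptor of B cells and of some helper T cells, had 0, 0 and 0 counts in the Kmt5b shRNA libraries, against 8, 10 and 43 counts in the GFP libraries. It was thus found in every GFP library and in no Kmt5b shRNA library. Low counts were mostly even, as where both mates of a pair are counted, so the floor was set at 3 read pairs, or 6 counts, per Kmt5b shRNA library. Against it the mean GFP level of 0.332 CPM makes Ccr6 at least 2.89-fold lower on average, for counting error only. That mean leans on GFP library 3, at 0.550 CPM, while GFP library 1, at 0.120 CPM, lay close to the mean floor of 0.115 CPM. The low-count filter left it out of the edgeR test. DESeq2, which instead filters genes by their mean count over all libraries, gave Ccr6 an adjusted p of 0.000256. With 0 counts in the Kmt5b shRNA libraries, Ccr6 can pass such a filter only through the GFP libraries. That value is thus not independent of the filter. Its ligand Ccl20 was at 0 in every library.

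By level, 23 of the 37 members averaged at least 1 CPM over the 6 libraries, 9 lay between 0.2 and 1 CPM, and 5 lay under 0.2 CPM and are termed near zero. The near-zero members were Ccl11, Ccl19, Xcl1, Ccr6 and Cxcr2, and of these only Xcl1 reached the test. To compare genes, CPM was divided by the merged exon length in kilobases. On that scale Cx3cl1 was first, at 163 CPM per kilobase in the Kmt5b shRNA libraries and 161 in the GFP libraries, followed by Ccl27a at 27.3 and 26.3 and Cxcl14 at 20.2 and 23.8. The ranges of Ccl27a and Cxcl14 were apart in the Kmt5b shRNA libraries and overlapped in the GFP libraries. The next place was held by Ccl12 at 9.18 CPM per kilobase in the Kmt5b shRNA libraries, and by Ccl5 at 7.32 CPM per kilobase in the GFP libraries. In the GFP libraries each member from Ccl5 through Ackr1, Cxcl12, Ccl8, Ccl12, Ackr3, Cxcl9 and Cxcl10 to Cxcl13 overlapped the next in range, so their order is not fixed by these data.

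**Figure D4:**
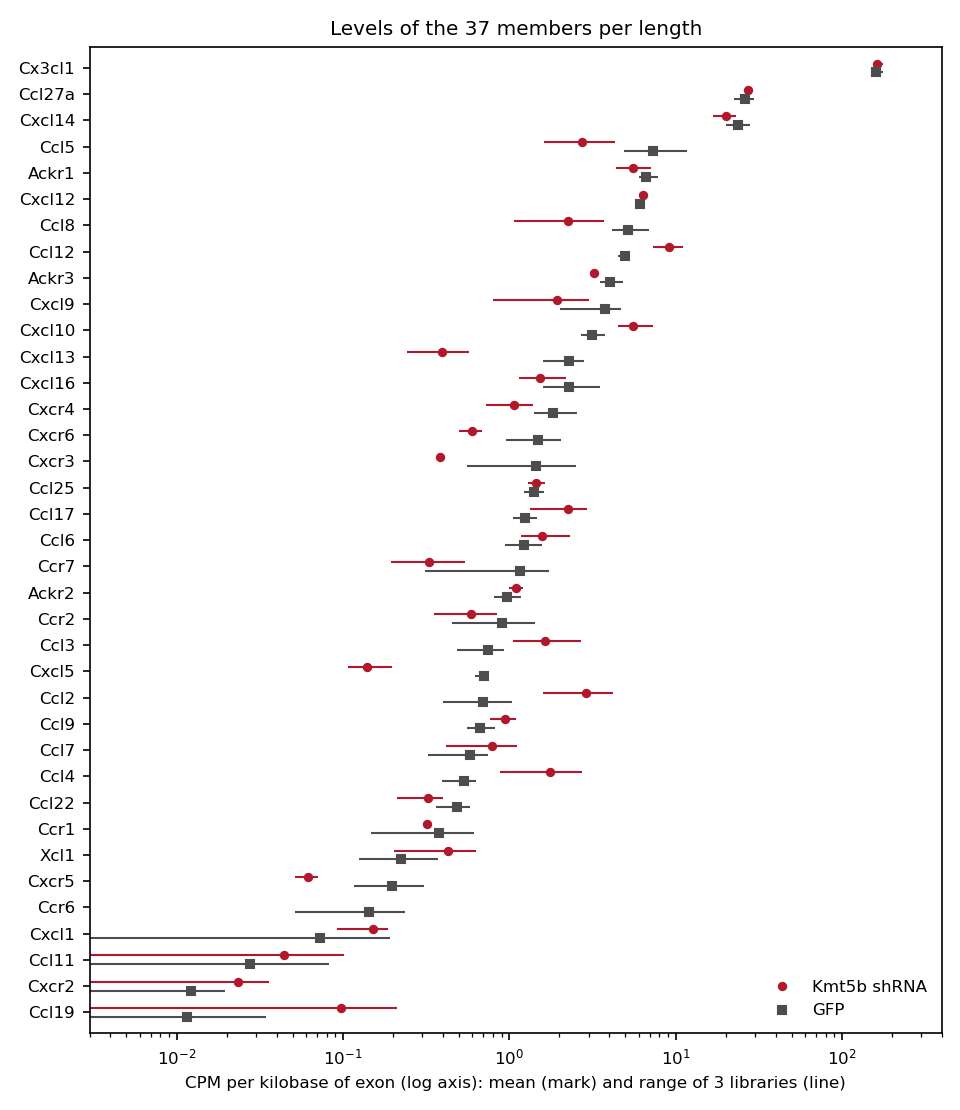
CPM per kilobase of exon on a log axis for all 37 members, ordered from the highest to the lowest mean in the GFP libraries, with the mean as a mark and the range of 3 libraries as a line (red circle Kmt5b shRNA, grey square GFP). A line that reaches the left edge includes a library at 0, and Ccr6 has no red mark because all 3 Kmt5b shRNA libraries were at 0. Cx3cl1 stands apart at 163 and 161 CPM per kilobase.

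Members that lie close together had log2 fold changes of both signs in some clusters and of 1 sign in another. In the cluster on chromosome 11 that runs from Ccl2 through Ccl7, Ccl11 and Ccl12 to Ccl8, over 81.2 kb, Ccl2 and Ccl12 passed as higher, while Ccl8 had a negative value, -1.20 ± 0.39. In the second cluster on that chromosome, over 138.9 kb, Ccl5 had -1.42 ± 0.48, and Ccl9, Ccl6, Ccl3 and Ccl4 had positive values, of which Ccl4 passed. Cxcl9 and Cxcl10 on chromosome 5 lie side by side with -0.97 ± 0.61, which did not pass, and 0.81 ± 0.19, which did. On chromosome 8, Ccl22, Cx3cl1 and Ccl17 lie within 66.4 kb, with log2 fold changes of -0.60 ± 0.34, 0.02 ± 0.11 and 0.86 ± 0.36, none of which passed. On chromosome 9, Cxcr6, Ccr1 and Ccr2 lie within 307.1 kb and all 3 had negative values, -1.32 ± 0.30, -0.25 ± 0.42 and -0.63 ± 0.49, of which Cxcr6 passed. Differences between neighbours were not tested.

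**Figure D5:**
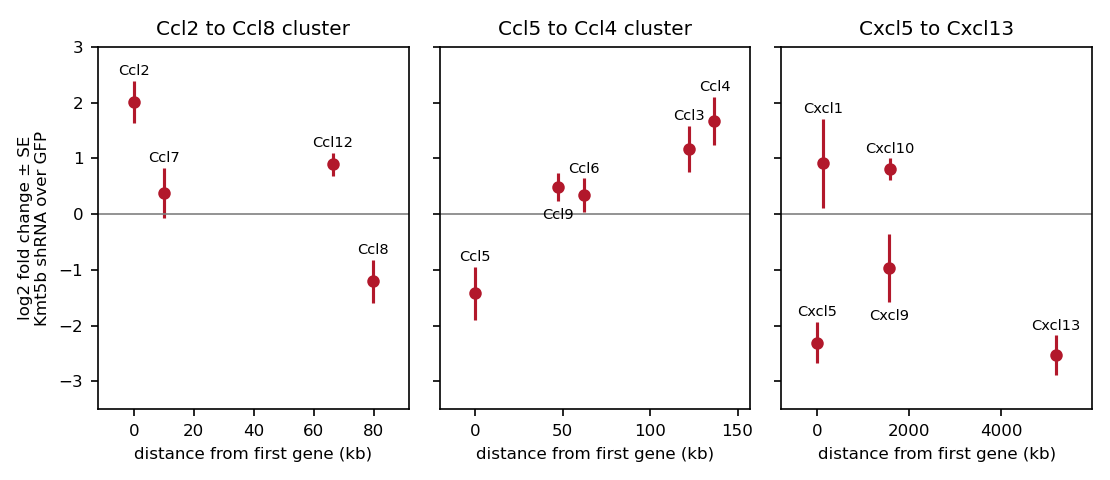
Log2 fold change of Kmt5b shRNA over GFP (points, with SE as bars) against the distance in kilobases from the first gene for tested members on chromosome 11 (left and middle panels) and on chromosome 5 (right panel). Points lie on both sides of 0 in each panel, as for Ccl12 and Ccl8 on the left and for Cxcl9 and Cxcl10 on the right.

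Few other genes of the pathway passed. Of 27 further chemokines and receptors 12 were tested and 0 passed in edgeR, and 1 was higher at an unadjusted p under 0.05. DESeq2, counted over all 27 and not only those 12, called 2 higher. Of all genes 7.2% were higher at the unadjusted threshold, and DESeq2 called 2.77% higher. Ccl20, Ccl21a, Ccl21c, Cxcl3 and Cxcl15 were at 0 in every library. Ccl21b had 18, 5 and 7 counts in the Kmt5b shRNA libraries, against 0, 0 and 0 counts in the GFP libraries, and was not tested in edgeR. Sequence shared among the Ccl21 genes is not given here, so reads may have been assigned to the wrong copy or lost. Of 25 genes for signalling downstream of chemokine receptors, Grk5, a kinase that desensitises such receptors, passed as higher (log2 fold change 0.49 ± 0.11, edgeR adjusted p = 0.00776). Rgs1, which dampens chemokine signalling in B and T cells, passed as lower (-1.21 ± 0.33, adjusted p = 0.0307). Thus 1 of 25 passed in each direction, where 2.77% of all genes passed as higher and 5.69% as lower. These counts are near the shares of all genes. For Rgs1 the adjusted p was 0.219 without GFP library 3, 0.165 without Kmt5b shRNA library 1 and 0.0660 without Kmt5b shRNA library 2. Of 24 signalling genes sharing no sequence 0 passed, with 3 higher and 2 lower at an unadjusted p under 0.05. Of all genes in that fit 7.96% were higher and 6.94% lower at that threshold. Rgs1 had an adjusted p of 0.132 there, and Grk5 was not among those genes. Lymphotoxins are needed for Cxcl13 expression in lymphoid organs. Of 13 tested genes for lymphotoxins, B cell survival factors and the receptors and signalling proteins they use, 12 had a log2 fold change below 0, with a median of -0.45, against -0.02 over all genes. Among them Tnfsf11 (8, 6 and 2 Kmt5b shRNA counts) and Tnfrsf13c (10, 10 and 18) were tested only through the GFP libraries. At an unadjusted p under 0.05, 5 of 13 were lower, and DESeq2 called 3 lower, where 10.2% and 5.32% of all genes were. In edgeR 1 of 13 passed as lower, near the 5.69% of all genes. That was Ltb, which encodes lymphotoxin beta, with 0.404, 1.03 and 1.09 CPM in the Kmt5b shRNA libraries, against 1.41, 2.34 and 3.95 CPM in the GFP libraries (-1.62 ± 0.43, adjusted p = 0.0327). Ltb passed without GFP library 1 but had an adjusted p of 0.0789 without GFP library 2 and 0.163 without GFP library 3, and 0.0980, 0.0955 and 0.0610 without Kmt5b shRNA library 1, 2 or 3. When genes sharing sequence were left out, 0 of 11 genes of this list passed, and Ltb had an edgeR adjusted p of 0.128. There 4 were lower at an unadjusted p under 0.05, where 6.94% of all genes in that fit were lower. Lymphocytes express Rgs1 and Ltb, several of their markers fell in the same libraries, and the part of those markers in these results was not tested.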

How the data were processed

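The authors deposited raw read counts per gene for 6 libraries of prefrontal cortex, 3 from Kmt5b shRNA and 3 from GFP mice. Per the labels' protocols, stranded libraries were made from total RNA, with Cutadapt for trimming and TopHat2 for alignment. STAR, featureCounts, DESeq2 and mm10 stand in the list of tools and builds, per the submitters' processing notes, so the sources name different aligners, and the strand setting of the counting is not given in the sources used here. Low counts were more often even than odd, as where both mates of a pair are counted. Groups came from the sample titles.

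The test was edgeR 4.0.16 (R 4.3.3; filterByExpr, TMM, robust quasi-likelihood fit, Benjamini-Hochberg adjustment over 24419 genes). The SE was taken as the size of the log2 fold change over the root of its F statistic. Shared sequence was found with BLAST+ 2.17.0 between GENCODE M21 transcripts at 90% identity over at least 100 bases; a gene shared sequence where matches reached 200 bases or 50% of its transcript. Alternatives were DESeq2 1.42.0, limma-voom (limma 3.58.1), other scalings, filters and gene sets, a replicate block and each library left out. Replicates of a group differed by more than sampling noise (chi-square per gene 18.5 to 44.6).

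The members and lists were chosen with earlier results of these data known. Values per library are given for members that passed and for tested members averaging at least 1 CPM, and up to 2 genes of smallest p per direction from other lists were named. Counts limit the precision of members under 1 CPM, and counts of read pairs are not independent molecules, so floors cover counting error only.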

Additional observations from a re-analysis of the deposited data

How the results depend on the processing

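Across all alternatives no called member changed sign. The number of members higher was 4 and the number lower 5 with RLE or upper-quartile scaling and without mitochondrial and ribosomal RNA genes. DESeq2 gave 4 higher and 7 lower, and limma-voom 3 and 4. Without a low-count filter 5 members were higher and 11 lower. With a filter of 1 CPM in 3 libraries 3 were higher and 3 lower, and 14 members were left out of the test. With protein-coding genes only 3 were lower, and Cxcl10, Ccl2 and Ccl12 were higher. Where no count over all genes stands beside them, a change in the members cannot be told from one in all calls. The fit of genes sharing no sequence called 0 members higher and 2 lower. The number tested and the calls among all genes fell together there: 79 genes were higher and 35 lower, against 676 and 1390 in the fit of all genes, and 300 and 197 by DESeq2 on those genes, a setting chosen after seeing the data. Protein-coding genes only gave 184 lower, and adding counts of intronless copies to their parents gave 333 higher and 420 lower; the cause was not tested. With 1 library left out, 1 to 4 members were higher and 2 to 6 lower; without GFP library 3 there were 1 and 2. Over single members, 531 fold changes kept their side of the threshold, 36 lost and 15 gained a call. Replicate numbers did not pair the samples (correlations of -0.0344, -0.0102 and 0.218), and a replicate block gave 4 higher and 7 lower. CPM on unscaled library totals moved each member and group by less than 1 SD. Depth limits the members under 1 CPM most.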
